A study of Mus musculus with 6 samples.

Results

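Transcripts of chemokines, chemokine receptors and colony-stimulating factors (CSFs) were examined in kidneys of Sall1 knockout and control mouse embryos at E14.5. Members were the genes whose symbol begins with Ccl, Cxcl, Ccr or Cxcr and a number, together with Pf4, Ppbp, Cx3cl1, Csf1, Csf2, Csf3 and Il34. The reference annotation held 66 such symbols, and 56 of them had a probe on the array through its RefSeq accession, among 17235 genes named in this way. A usable probe on all 6 arrays was available for 54 members, and 40 of these were well above background on at least 2 arrays and were tested, among 26395 features tested in all.

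Each of the 6 samples was hybridised to a single one-colour Agilent array. All samples were of a mixed 129 and C57BL/6 background, and both lines used floxed Sall1. The Six2Cre knockout group (replicates 7 and 9) carried Cre driven by Six2, which is active in nephron progenitors, and was compared with the Six2Cre control group (replicates 5 and 2). The inducible pair consisted of the CreER knockout (replicate 5, titled CreER/flox) and the CreER control (replicate 2, titled wt/flox), with CreER placed at Sall1 itself according to the series title. Tamoxifen was given at E12.5 and these kidneys were taken 48 hours later. CreER is named for the CreER knockout alone, so carrying CreER and losing Sall1 cannot be told apart in that pair. Whether the controls of the Six2Cre line had Cre or the floxed allele is not given. One description mentions tamoxifen for all 6 samples, and whether the Six2Cre embryos received it is not settled by the labels. The labels do not say how many kidneys made up a sample or whether samples came from separate embryos, so p-values measure the spread between these samples, which may be technical.

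Chemokines are small secreted proteins that bind G protein-coupled receptors and guide the movement of cells along gradients, many of them held on heparan sulfate at cell surfaces. They are classed by the spacing of their first cysteines into CC, CXC and CX3C ligands, and CXC ligands that carry a glutamate-leucine-arginine (ELR) motif mainly attract neutrophils. CSFs set the survival and differentiation of macrophages and granulocytes. In the fetal kidney, macrophages lie between the stroma and the developing nephrons, and Cxcl12 from the stroma acts through its receptor Cxcr4.

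A level is given here as the log2 processed signal minus the 75th percentile of that array, so a difference of 1 is 2-fold. Levels of different genes come from different probes and cannot be ranked against each other. Between 71.8% and 82.9% of probes were well above background, with the CreER knockout array the lowest. On that array the negative control spots had an SD of 4.01, against 1.46 to 1.61 on the other 5 arrays, and the dimmest signal called well above background lay at -6.42, against -8.12 to -7.87 elsewhere. Six2Cre control 2 also stood apart: all 18 skeletal muscle markers were at least 2-fold above the median of the other arrays there, by a median of 18.4-fold. Values without that array are therefore given for the member count at an unadjusted p under 0.05, for the members' median and for several members. The counts by overlap and within slides include that array. Knockout 7 and control 5 of the Six2Cre line were on slide 1 and the remaining arrays on slide 2, so that each slide held a Six2Cre knockout and a Six2Cre control. Sall1 itself had levels of -2.65 and -2.0 in the Six2Cre knockouts, against -1.38 and -0.77 in the Six2Cre controls, and -4.06 in the CreER knockout, against -1.28 in the CreER control. The labels do not say which part of Sall1 was floxed, and the Six2Cre difference of -1.25 ± 0.38 (SE) did not pass the test in limma (adjusted p = 0.595). Markers of nephron progenitors (20 of 20), ureteric bud (20 of 20) and podocytes (15 of 15) were all well above background on at least 2 arrays. The same held for muscle (18 of 18) and stroma (24 of 24) markers, so these counts do not by themselves show kidney identity.

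Of the 40 members tested, 33 were well above background on all 6 arrays, 3 on 5, 3 on 3 and 1 on 2. The number of members well above background was 38 and 42 of 54 in the Six2Cre knockouts 7 and 9, against 37 and 39 in the Six2Cre controls 5 and 2, and 33 in the CreER knockout, against 40 in the CreER control. Below the filter lay 14 members: the ligands Ccl1, Ccl22, Cxcl3, Cxcl5, Cxcl9, Cxcl15 and Cxcl17, the receptors Ccr1, Ccr4, Ccr8, Ccr10, Cxcr1 and Cxcr5, and Csf2, which drives granulocyte and macrophage growth. Cxcl17, a mucosal chemokine, had levels of -8.06 and -7.66 in the Six2Cre knockouts, against -9.21 and -9.12 in the Six2Cre controls, and -7.83 in the CreER knockout, against -8.31 in the CreER control. It was not well above background on any of these arrays, so no fold is given. The only probes of Cxcl2 and Ccr1l1 carried an outlier flag on 1 array each. Cxcl2, a neutrophil attractant, was not well above background on any of the other 5 arrays, and Ccr1l1 was so on Six2Cre knockout 9 alone. The 10 symbols not matched to a probe were Cxcl11, Ccl26, Ccl27b, Ccl21b, Ccl21c, Ccl21d and the pseudogenes Ccl16-ps, Ccl19-ps1, Ccl19-ps2 and Ccl19-ps3.

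In the Six2Cre line, both knockout arrays lay above both control arrays for 20 of the 40 members tested (50%), a placement that 17.6% of all features tested showed. The reverse held for 3 members, Cx3cl1, Cxcl14 and Cxcr4 (7.5%, against 12.6% of all features). Within slides, 25 members were higher in the knockout on both slides (62.5%, against 34.7% of features) and 3 were lower on both (7.5%, against 24.4%). At least 2-fold higher on both slides were 4 members, Csf3, Ccl21a, Ccl12 and Ppbp (10%, against 1.54% of features), and none was 2-fold lower on both (0%, against 1.68%). The median Six2Cre difference over the members was 0.33 (0.38 on slide 1 and 0.51 on slide 2), against 0.03 over all features. Over the 33 members well above background on every array, 18 lay above and 3 below without overlap, with a median of 0.39. The matching share over all features well above background on every array was not computed, so these 2 counts have no background beside them.

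With limma, no member and no feature passed an adjusted p of 0.05 in the Six2Cre comparison (0% of features), and the lowest adjusted p over all features was 0.0861. At an unadjusted p under 0.05, 12 of 40 members were higher in the knockouts (30%, against 3.61% of features) and 1 was lower (2.5%, against 2.7%). The 12 were Csf3, Ppbp, the receptor Ccr9 and the CC ligands Ccl2, Ccl3, Ccl4, Ccl7, Ccl8, Ccl11, Ccl12, Ccl20 and Ccl21a, and the member below was Cxcl14. The count of 12 was 5 without knockout 7, 3 without knockout 9, 6 without control 5 and 5 without control 2, and the median was 0.51 without control 2. With the slide as a block, no member passed the adjusted threshold, and 15 were higher and 1 was lower at an unadjusted p under 0.05 (7.02% and 4.54% of features). With the slide as a block and a trended, robust prior, 5 members rose (Csf3, Ccl21a, Ccl12, Ppbp and Pf4, against 1.15% of features) and 1 fell (Cxcl14; 2.5%, against 1.22%). With normexp background correction the median over members was 0.15.

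**Figure D1:**
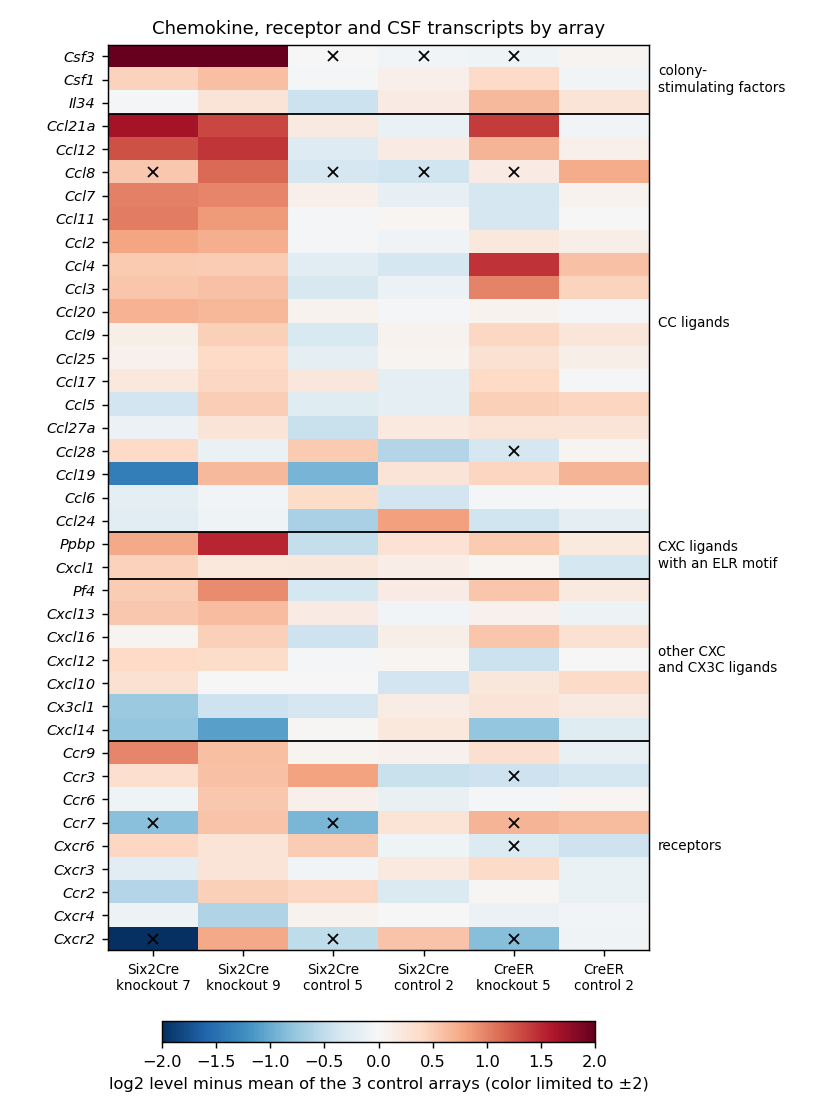
Level of 39 of the 40 tested members (rows, by role) on each array (columns), as the log2 level minus the mean of the 3 control arrays, in color limited to 2 either way; crosses mark arrays where the probe was not well above background. In the Six2Cre knockout columns 19 of these lie above both Six2Cre controls and 3 lie below both.

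The widest difference among the members was that of Csf3, the granulocyte colony-stimulating factor, which drives neutrophil production through its receptor Csf3r. Its levels were -4.22 and -4.12 in the Six2Cre knockouts 7 and 9, against -7.65 and -7.69 in the Six2Cre controls 5 and 2, where the probe was not well above background. In the CreER pair it was -7.73 in the knockout, not well above background, and -7.58 in the control. Csf3 was thus measured well above background in both Six2Cre knockouts and otherwise on the CreER control alone. The Six2Cre knockouts were at least 11.3-fold above the Six2Cre controls (limma adjusted p = 0.0861, and 0.00991 with the slide block and the trended, robust prior). This bound equals the measured fold. The control levels, though not called well above background, already lay above the dimmest signal so called on those arrays (-7.87 and -7.90). Csf3r had levels of -4.86 and -5.14 in the Six2Cre knockouts, against -4.93 and -5.25 in the Six2Cre controls, a difference of 0.09 ± 0.28.

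Csf1, the main growth factor of tissue macrophages, had levels of -0.52 and -0.39 in the Six2Cre knockouts, against -1.03 and -0.89 in the Six2Cre controls, and of -0.60 in the CreER knockout, against -1.04 in the CreER control. All 3 knockouts therefore lay above all 3 controls, by 0.51 and 0.50 within the slides and by 0.44 in the CreER pair. The Six2Cre difference of 0.50 ± 0.25 did not pass in limma (adjusted p = 0.973), and it was 0.58 without control 2. Il34, the other ligand of the same receptor, overlapped between the Six2Cre groups, with -3.11 and -2.82 in the knockouts, against -3.50 and -2.90 in the controls. It was -2.42 in the CreER knockout and -2.81 in the CreER control. Their shared receptor Csf1r, which marks macrophages, had levels of -1.13 and -0.41 in the Six2Cre knockouts, against -1.44 and -0.67 in the Six2Cre controls, and differed by 0.29 ± 0.42.

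CC ligands made up 11 of the 20 members whose Six2Cre knockouts lay above the controls without overlap. Of 18 tested, 15 were higher on average in the Six2Cre knockouts, against 14231 of the 26395 features. At an unadjusted p under 0.05, 9 of the 18 were higher, against 3.61% of features, and none was lower. Their median difference was 0.54 in the Six2Cre line and 0.08 in the CreER pair.

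Ccl2, Ccl7, Ccl11, Ccl12 and Ccl8 follow each other on mouse chromosome 11, and all 5 had both Six2Cre knockouts above both Six2Cre controls. Ccl2, Ccl7 and Ccl12 attract monocytes through Ccr2, and Ccl11, or eotaxin, attracts eosinophils through Ccr3. Ccl12 had levels of -2.91 and -2.74 in the Six2Cre knockouts, against -4.44 and -4.02 in the Six2Cre controls, and -3.50 in the CreER knockout, against -4.07 in the CreER control. The Six2Cre difference was 1.41 ± 0.28, or 2.66-fold (limma adjusted p = 0.297, and 0.0431 with the slide block and the trended, robust prior), and it was 1.62 without control 2. Ccl7 had levels of -4.51 and -4.54 in the Six2Cre knockouts, against -5.41 and -5.68 in the Six2Cre controls, but -5.85 in the CreER knockout, against -5.44 in the CreER control. On this brighter probe the lowest of the 6 levels of Ccl7 was thus that of the CreER knockout. Its second probe gave 0.96 in the Six2Cre line, close to the 1.02 of the brighter probe, and -0.19 in the CreER pair, against -0.40. On the second probe the CreER knockout, at -5.89, lay just above the Six2Cre controls, at -5.91 and -5.99. Ccl2 had levels of -2.28 and -2.35 in the Six2Cre knockouts, against -3.11 and -3.15 in the Six2Cre controls, and -2.86 in the CreER knockout, against -2.96 in the CreER control. The Six2Cre knockouts lay 1.76-fold above the controls, and the CreER arrays differed by 1.07-fold. Without control 2 the Six2Cre difference was 0.80 for Ccl2, 0.885 for Ccl7 and 0.98 for Ccl11.

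Ccl11 had levels of -1.15 and -1.32 in the Six2Cre knockouts, against -2.21 and -2.12 in the Six2Cre controls, and -2.51 in the CreER knockout, against -2.17 in the CreER control. The Six2Cre difference was 0.93 ± 0.25, or 1.91-fold (limma adjusted p = 0.506), whereas the CreER knockout was the lowest of the 6 arrays. Ccl8, the last of the 5 in order, was well above background on Six2Cre knockout 9 (-7.66) and the CreER control (-8.06) alone, so no fold is given. Its other levels were -8.26 in Six2Cre knockout 7, -9.14 and -9.19 in the Six2Cre controls and -8.63 in the CreER knockout. The next gene along the chromosome, Ccl1, was not well above background on any array. The promoter of Ccl12 is shown because this gene had the widest difference of the cluster. The 250 bases upstream of its start (chr11:82101595-82101844, plus strand, GRCm38.p6, RefSeq) hold TATAAA and GAGGAA, in capitals.
Ccl12: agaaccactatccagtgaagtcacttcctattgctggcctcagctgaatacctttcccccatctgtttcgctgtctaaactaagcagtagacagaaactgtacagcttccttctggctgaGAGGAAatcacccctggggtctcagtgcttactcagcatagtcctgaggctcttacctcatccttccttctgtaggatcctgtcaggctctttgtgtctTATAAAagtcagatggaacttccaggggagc
GAGGAA, searched on both strands, is a core sequence bound by PU.1, the macrophage ETS factor, and TATAAA was searched on the forward strand.

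Ccl21a had the most even difference over the 3 pairs. Ccl21 and Ccl19 are the ligands of Ccr7 and guide lymphocytes and dendritic cells, and Ccl21 is made by lymphatic endothelium and stroma. Its levels were 1.78 and 1.46 in the Six2Cre knockouts, against 0.30 and -0.01 in the Six2Cre controls, and 1.52 in the CreER knockout, against 0.07 in the CreER control. All 3 knockouts lay above all 3 controls, by 1.48 on slide 1, 1.47 on slide 2 and 1.45 in the CreER pair. The Six2Cre difference was 1.47 ± 0.28, or 2.78-fold (limma adjusted p = 0.277, and 0.00596 with the slide block and the trended, robust prior), and it was 1.32 without control 2. A fit of genotype to the 6 arrays, adjusted for line and slide, gave 1.47 ± 0.11 (limma adjusted p = 0.213, and 0.0204 with normexp background correction). Ccl21b, Ccl21c and Ccl21d are near-identical copies of Ccl21a in the mouse genome. The probe may therefore report any of them, and which copy gave the signal is uncertain.

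Ccl19, the neighbour of Ccl21a on chromosome 4, had levels of -2.29 and -0.26 in the Six2Cre knockouts 7 and 9, against -1.84 and -0.64 in the Six2Cre controls 5 and 2, and -0.48 in the CreER knockout, against -0.23 in the CreER control. The groups overlapped, and the arrays of slide 1 lay below those of slide 2 whatever their genotype. The second probe of Ccl19 differed from the first in sign in the Six2Cre line, with 0.65 against -0.03. The upstream 250 bases of Ccl21a (chr4:42773992-42774241, minus strand, GRCm38.p6, RefSeq) are shown because its difference was shared by both lines. They hold GAGGAA, in capitals, and none of the other motifs searched in the window.
Ccl21a: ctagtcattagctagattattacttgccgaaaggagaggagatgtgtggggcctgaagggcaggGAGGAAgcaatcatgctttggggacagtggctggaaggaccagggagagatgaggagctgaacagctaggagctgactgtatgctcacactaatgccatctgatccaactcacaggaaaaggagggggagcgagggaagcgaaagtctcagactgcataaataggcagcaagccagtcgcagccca

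Ccl3 and Ccl4, the macrophage inflammatory proteins, lie next to each other in a second cluster on chromosome 11 after Ccl5, Ccl9 and Ccl6. Ccl4 had levels of -5.16 and -5.19 in the Six2Cre knockouts, against -5.92 and -6.04 in the Six2Cre controls, and -4.24 in the CreER knockout, against -5.11 in the CreER control. The differences were 0.76 and 0.85 within the slides and 0.87 in the CreER pair, or 0.59 there with normexp. Ccl3 had levels of -5.15 and -5.11 in the Six2Cre knockouts, against -6.02 and -5.82 in the Six2Cre controls, and -4.71 in the CreER knockout, against -5.26 in the CreER control. The CreER knockout was the highest of the 6 arrays for both genes. Over all 6 arrays, genotype gave 0.83 ± 0.11 for Ccl4 and 0.71 ± 0.13 for Ccl3 (limma adjusted p = 0.258 and 0.337). Among the other members of this cluster, Ccl9 differed by 0.42 ± 0.29, Ccl5 by 0.27 ± 0.37 and Ccl6 by -0.12 ± 0.35 in the Six2Cre line.

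Ccl20, the ligand of Ccr6, differed by 0.65 ± 0.24 in the Six2Cre line and by 0.12 in the CreER pair. Ccl25, which guides thymocytes and gut lymphocytes through Ccr9, had levels of 0.04 and 0.36 in the Six2Cre knockouts, against -0.22 and 0.02 in the Six2Cre controls, and 0.26 in the CreER knockout, against 0.08 in the CreER control. Within the Six2Cre line the lowest knockout lay just above the highest control, and its second, dimmer probe gave 0.21 in the Six2Cre line and -0.17 in the CreER pair. Ccl27a, a skin chemokine that binds Ccr10, overlapped, with 0.27 and 0.63 in the Six2Cre knockouts, against -0.07 and 0.58 in the Six2Cre controls, and 0.65 and 0.63 in the CreER knockout and control. Ccl27a has a near-identical copy, Ccl27b, that the probe may also report. Ccl17, Ccl24 and Ccl28 overlapped between the Six2Cre groups, with differences between -0.24 and 0.30.

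**Figure D2:**
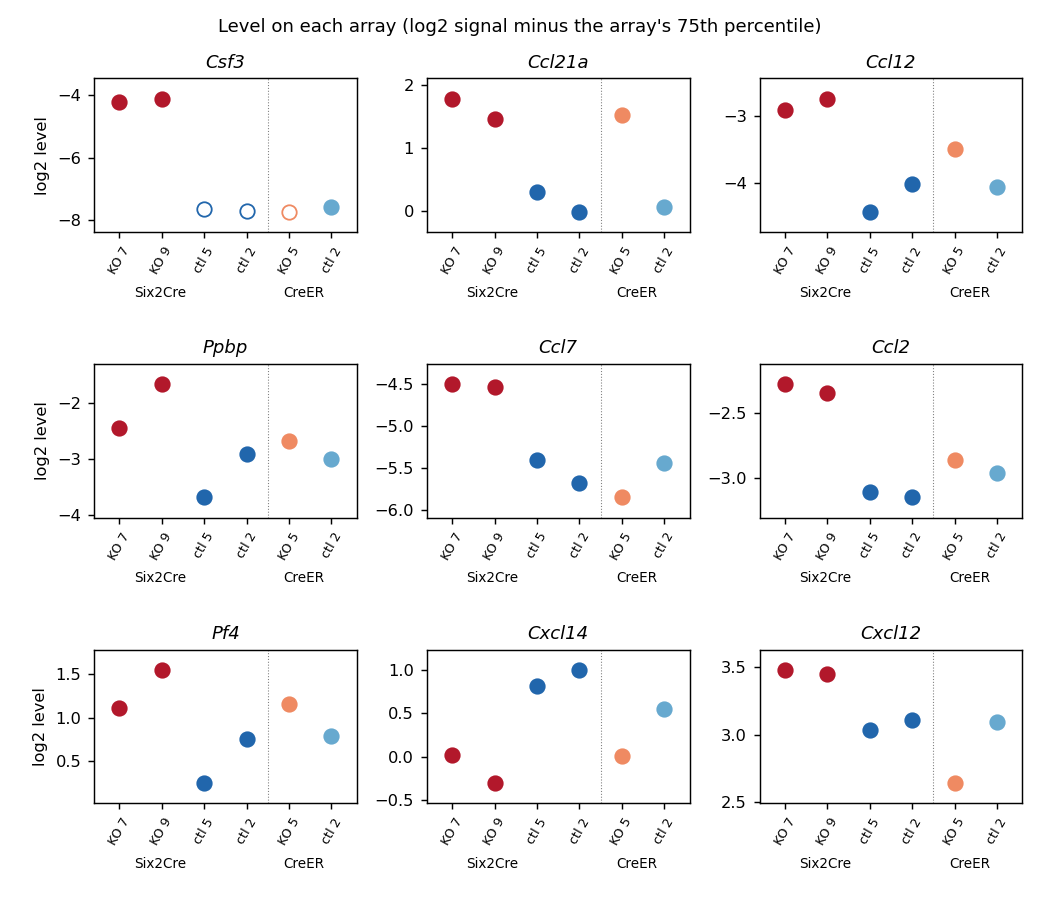
Level on each array (log2 scale, relative to the 75th percentile of that array, on the vertical axis) for 9 members; filled points were well above background and open points were not, and KO and ctl stand for knockout and control. Csf3 is well above background at -4.22 and -4.12 in the Six2Cre knockouts, and Ccl21a is above 1.4 in all 3 knockouts.

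Among ligands with an ELR motif, Ppbp and Cxcl1 were tested. Ppbp, the platelet basic protein, and Pf4, platelet factor 4, which lacks that motif, are stored in platelet granules and made by megakaryocytes, and their genes are neighbours on chromosome 5. Ppbp had levels of -2.44 and -1.67 in the Six2Cre knockouts 7 and 9, against -3.68 and -2.91 in the Six2Cre controls 5 and 2, and -2.68 in the CreER knockout, against -3.0 in the CreER control. The difference was 1.24 on slide 1, 1.23 on slide 2 and 0.32 in the CreER pair, and the slides themselves differed by 0.77. The Six2Cre value of 1.24 ± 0.43 had a limma adjusted p of 0.716, and of 0.041 with the slide block and the trended, robust prior. Pf4 had levels of 1.11 and 1.55 in the Six2Cre knockouts, against 0.25 and 0.76 in the Six2Cre controls, and 1.16 in the CreER knockout, against 0.79 in the CreER control. All 3 knockouts lay above all 3 controls, by 0.86 and 0.79 within the slides and by 0.37 in the CreER pair. Pf4 had a limma adjusted p of 0.814, and of 0.035 with the slide block and the trended, robust prior. Without control 2 the Six2Cre differences were 1.62 for Ppbp and 1.08 for Pf4.

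Platelet and megakaryocyte markers were also higher on average: 11 of 13 tested in the Six2Cre line, against 14231 of the 26395 features. Their median was 0.38 in the Six2Cre line and 0.41 in the CreER pair. Gp9, a platelet adhesion receptor subunit, had the widest Six2Cre difference of that list, 0.87 ± 0.26, and differed by 0.97 in the CreER pair. For Treml1 these values were 0.80 ± 0.27 and 0.70. Vwf and Nfe2 lay the other way in the Six2Cre line, at -0.41 and -0.56. The summed level of that list, on a linear scale relative to the 75th percentile, was 2.37 and 2.76 in the Six2Cre knockouts, against 2.12 and 2.24 in the Six2Cre controls, and 2.76 in the CreER knockout, against 2.19 in the CreER control. The part of these markers in the Ppbp and Pf4 values was not tested. The upstream 250 bases of the 2 platelet genes differ in the motifs searched. Ppbp (chr5:90768268-90768517, plus strand, GRCm38.p6, RefSeq) holds TATAAA at 2 places, and Pf4 (chr5:90772185-90772434, plus strand) holds GAGGAA on the minus strand, all in capitals.
Ppbp: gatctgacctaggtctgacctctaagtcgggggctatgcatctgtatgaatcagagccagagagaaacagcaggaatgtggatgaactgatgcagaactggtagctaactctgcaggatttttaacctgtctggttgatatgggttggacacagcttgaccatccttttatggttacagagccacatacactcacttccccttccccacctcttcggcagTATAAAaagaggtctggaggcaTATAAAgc
Pf4: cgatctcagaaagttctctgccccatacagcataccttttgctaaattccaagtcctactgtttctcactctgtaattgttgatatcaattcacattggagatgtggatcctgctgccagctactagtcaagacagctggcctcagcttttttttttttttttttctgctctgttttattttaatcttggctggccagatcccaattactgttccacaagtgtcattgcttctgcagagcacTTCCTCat

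Cxcl1, a neutrophil attractant of the same chromosome 5 cluster, differed by 0.16 ± 0.25 in the Six2Cre line and by 0.40 in the CreER pair, with overlap between the Six2Cre groups. Its upstream 250 bases (chr5:90890995-90891244, plus strand, GRCm38.p6, RefSeq) hold an NF-kB consensus site, in capitals. That site was not found in the windows of Ccl12, Ccl21a, Ppbp or Pf4. It was found for Ccl9, Ccl20, Csf1 and Cxcl10, whose Six2Cre knockouts lay above both controls. Csf3, Ccl2, Ccl7 and Ccl11 had no promoter sequence in the reference, so no motif was searched for them. Ccr3 and Ccr6, which overlapped between the Six2Cre groups, also held it, as did Ccl1, Ccr1, Cxcl2 and Cxcl3, which were not tested.
Cxcl1: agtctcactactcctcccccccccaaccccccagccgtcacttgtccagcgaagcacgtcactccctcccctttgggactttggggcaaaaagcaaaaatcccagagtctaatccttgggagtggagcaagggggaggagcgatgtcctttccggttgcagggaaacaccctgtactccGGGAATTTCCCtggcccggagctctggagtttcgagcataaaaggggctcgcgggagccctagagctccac
Of 32851 promoter sequences in the reference, 7.25% held the NF-kB consensus, 7.59% TATAAA and 23.3% GAGGAA within these 250 bases. Among the 51 promoter sequences of members, 11, 11 and 18 held them. Counted by gene, these were 11, 11 and 16 of the 44 members with a sequence, some of which were not tested. A match is a description of letters, and no match says only that these letters are not in the window.

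Cxcl14 was the member with the widest difference in the other direction. It encodes a chemokine of epithelia and mesenchyme whose signalling receptor is not agreed on. Its levels were 0.02 and -0.30 in the Six2Cre knockouts, against 0.82 and 1.00 in the Six2Cre controls, and 0.01 in the CreER knockout, against 0.55 in the CreER control. All 3 knockouts lay below all 3 controls. The Six2Cre difference was -1.05 ± 0.27 (limma adjusted p = 0.474, and 0.0352 with the slide block and the trended, robust prior), with -0.80 on slide 1, -1.31 on slide 2 and -0.54 in the CreER pair. Without control 2 it was -0.96. The upstream 250 bases of Cxcl14 (chr13:56296552-56296801, minus strand, GRCm38.p6, RefSeq) hold TTCNNNGAA, the spaced palindrome that STAT factors bind, in capitals. The same letters were found in 7.02% of all promoters and in 4 of the 51 promoter sequences of members.
Cxcl14: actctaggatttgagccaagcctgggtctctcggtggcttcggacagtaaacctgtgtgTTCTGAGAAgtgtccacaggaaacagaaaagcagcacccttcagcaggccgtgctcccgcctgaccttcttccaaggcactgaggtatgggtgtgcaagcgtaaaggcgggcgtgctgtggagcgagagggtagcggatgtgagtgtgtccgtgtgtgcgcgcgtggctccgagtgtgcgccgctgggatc

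Cxcl12, which holds Cxcr4-bearing cells in place and is made by kidney stroma, had levels of 3.48 and 3.45 in the Six2Cre knockouts, against 3.03 and 3.11 in the Six2Cre controls, and 2.64 in the CreER knockout, against 3.09 in the CreER control. The 2 lines thus lay on opposite sides of their controls, by 0.39 ± 0.24 in the Six2Cre line and -0.45 in the CreER pair. A second probe gave 0.99 and -0.62. The difference between lines was -0.85 ± 0.41 with an adjusted p of 1.00 in limma. Cxcr4 itself had levels of -1.53 and -2.03 in the Six2Cre knockouts, against -1.36 and -1.44 in the Six2Cre controls, and -1.54 in the CreER knockout, against -1.48 in the CreER control. It lay below the control in all 3 pairs, at -0.05 in the CreER pair, and its Six2Cre difference of -0.38 ± 0.29 did not pass (adjusted p = 1.00). That difference ranged from -0.626 without knockout 7 to -0.125 without knockout 9. Without control 2 it was -0.416 for Cxcr4 and 0.43 for Cxcl12. Ackr3, the scavenging receptor of Cxcl12, had levels of 3.59 and 2.85 in the Six2Cre knockouts, against 2.61 and 2.13 in the Six2Cre controls, a difference of 0.85 ± 0.38 (adjusted p = 0.905, and 0.0377 with the slide block and the trended, robust prior). In the CreER pair Ackr3 differed by 0.05.

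Cx3cl1, a membrane-tethered chemokine of epithelium and endothelium, had levels of -1.50 and -1.17 in the Six2Cre knockouts, against -1.09 and -0.60 in the Six2Cre controls, and -0.49 in the CreER knockout, against -0.57 in the CreER control. The Six2Cre difference was -0.49 ± 0.31, or -0.25 without control 2. Its receptor Cx3cr1, carried by macrophages, had levels of -3.40 and -2.23 in the Six2Cre knockouts, against -2.59 and -3.02 in the Six2Cre controls. The groups overlapped, and the slides differed in sign (-0.81 and 0.79). The interferon-induced Cxcl10 differed by 0.35 ± 0.29, the B cell attractant Cxcl13 by 0.52 ± 0.25 and the transmembrane Cxcl16 by 0.41 ± 0.33 in the Six2Cre line. None of these 3 passed in limma (adjusted p = 0.958 to 1.00).

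**Figure D3:**
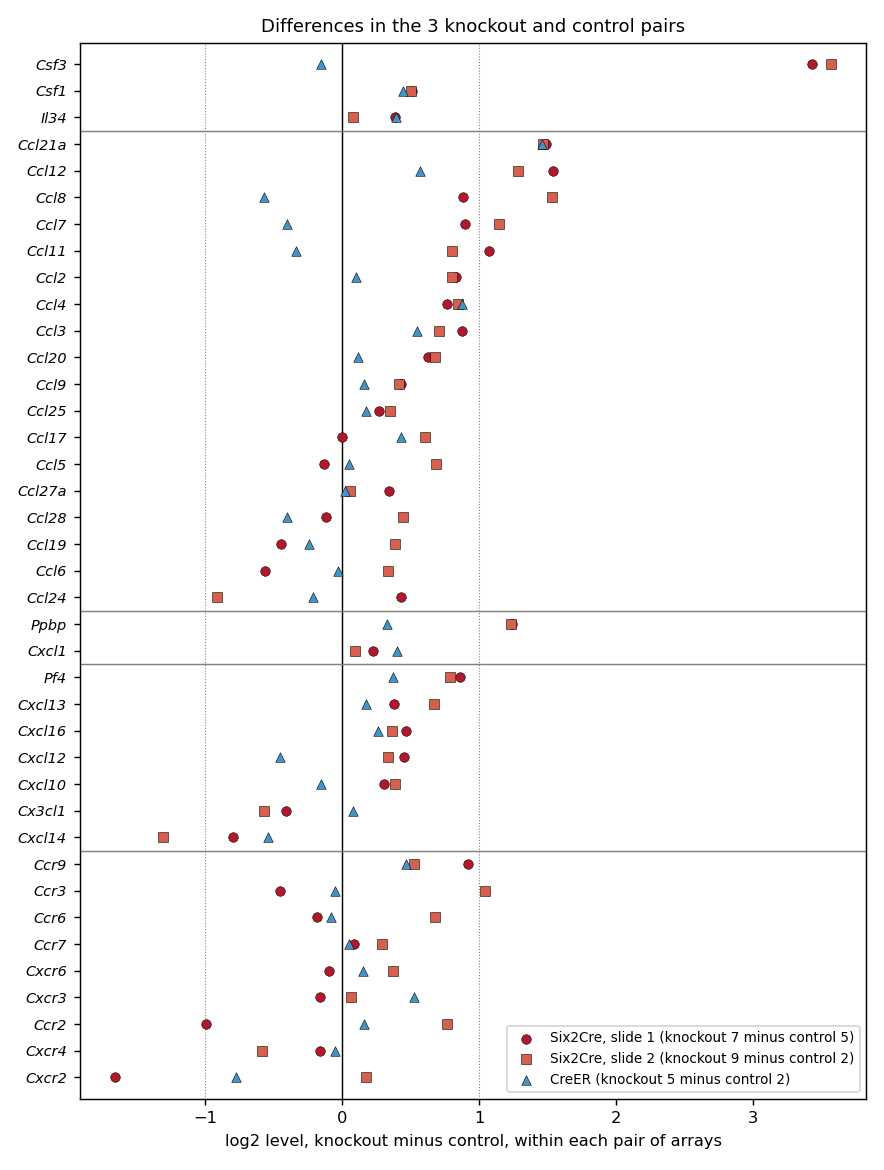
Difference in log2 level, knockout minus control, of the same 39 members (rows, in the same order) within each of the 3 pairs of arrays; circles and squares are the Six2Cre pairs of slides 1 and 2, and triangles the CreER pair. Ccl21a has nearly the same value in all 3 pairs (1.48, 1.47 and 1.45), whereas Csf3 lies far to the right in the Six2Cre pairs alone, set there against control values not well above background.

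Of the 16 receptors with a usable probe, 10 were tested, of which 2 lay above and 1 below without overlap in the Six2Cre line (17.6% and 12.6% of all features did), with a median of 0.16. Ccr9, the thymic homing receptor, differed by 0.72 ± 0.27 in the Six2Cre line and by 0.46 in the CreER pair. Ccr2, the monocyte receptor of Ccl2, Ccl7 and Ccl12, differed by -0.997 on slide 1 and 0.761 on slide 2, and its pooled value was -0.12 ± 0.48. Its second probe, well above background on 1 array, gave 0.65. Ccr3, Ccr6, Cxcr3 and Cxcr6 overlapped between the Six2Cre groups, with differences from -0.05 to 0.29. Ccr7, the receptor of Ccl21a, was well above background on 3 arrays and differed by 0.19 ± 0.65. Cxcr2, the receptor of Ppbp and Cxcl1, was well above background on 3 arrays, and its levels of -10.03 and -7.11 in the Six2Cre knockouts enclosed the -8.37 and -7.29 of the Six2Cre controls. Its second probe was not well above background on any array.

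In the CreER pair, where a single array stands for each group and the pair was not tested on its own, Ccl21a was the only member at least 2-fold higher in the knockout (2.5%, against 1.45% of 26172 features). No member was at least 2-fold lower (0%, against 2.42%). In that pair 25 of 40 members were higher in the knockout (62.5%, against 48.3%), with a median of 0.09 over the members and -0.01 over all features. All 3 knockouts were on the same side of their paired control for 19 members that were higher (47.5%, against 20% of features) and for 2 that were lower, Cxcl14 and Cxcr4 (5%, against 14.3%). With genotype fitted over all 6 arrays, no member passed in limma (0%), and 12 were higher and 1 was lower at an unadjusted p under 0.05 (30% and 2.5%, against 5.77% and 3.91%). That higher count was 6 or 7 when any one of the Six2Cre arrays was left out.

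The difference between the lines was tested by a limma contrast in which the lone CreER arrays are assumed to vary like the Six2Cre groups. No member passed after adjustment (0% of features). At an unadjusted p under 0.05, 4 members differed (10%, against 2.34% of features): Csf3, Ccl7, Ccl11 and Ccl8, each with a lower value in the CreER pair. The contrast was -1.43 ± 0.44 for Ccl7 and -1.27 ± 0.43 for Ccl11 (adjusted p = 1.00 for both). No size is given for Csf3 or Ccl8, which were not well above background on the CreER knockout or the Six2Cre controls. With normexp the CreER difference of Ccl7 was 0.07, so its sign in that pair depends on the background correction.

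The wider pathway was described with lists of genes that are no members. At an unadjusted p under 0.05, 3.61% of all features were higher in the Six2Cre knockouts and 2.7% were lower. Of 11 tested atypical receptors and other chemokine-like genes, 1 was higher at an unadjusted p under 0.05, the macrophage attractant Rarres2 or chemerin, with 1.07 ± 0.26 in the Six2Cre line and 0.16 in the CreER pair (limma adjusted p = 0.461). Their median was 0.27. Of 12 CSF receptors and partners, none reached that level, and the median was 0.22. Of 34 genes of receptor signalling 2 reached it, among them Rgs2, a brake on G protein signalling, with 0.79 ± 0.27, and the median was 0.09. Of 23 proteoglycans and processing enzymes none reached it, and the median was 0.01.

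Of 31 tested genes in the list of inflammatory inducers of chemokines, 4 were higher at an unadjusted p under 0.05 (against 3.61% of features) and the median was 0.05. That list also holds inhibitors, such as Il1rn and Nfkbia, and adhesion genes, such as Icam1. Il6, a cytokine that acts through STAT3, had levels of -6.02 and -5.39 in the Six2Cre knockouts, against -8.03 and -7.28 in the Six2Cre controls, and -6.96 in the CreER knockout, against -7.44 in the CreER control. It was well above background on 1 of the 2 Six2Cre controls and not on the CreER knockout. Il33, an alarmin, had levels of 2.61 and 2.31 in the Six2Cre knockouts, against 1.12 and 0.97 in the Six2Cre controls, and 0.41 in the CreER knockout, against 0.91 in the CreER control. The Six2Cre differences were 1.95 ± 0.40 for Il6 and 1.42 ± 0.26 for Il33 (limma adjusted p = 0.322 and 0.273, and 0.0802 and 0.00662 with the slide block and the trended, robust prior). The interleukin 1 antagonist Il1rn differed by 1.61 ± 0.24 and the inflammasome product Il18 by 0.84 ± 0.29 in the Six2Cre line. In the CreER pair Il33 differed by -0.50, and Il1rn was not well above background on the knockout, at least 1.68-fold below the control. Of 19 interferon response genes, 17 were higher on both slides, against 34.7% of features. At an unadjusted p under 0.05, 5 were higher (Usp18, Gbp3, Isg15, Gbp2 and Oas1a), against 3.61% of features. The median of the list was 0.40 in the Six2Cre line and 0.09 in the CreER pair. Ifng and Ifnb1 were below background on all 6 arrays.

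**Figure D4:**
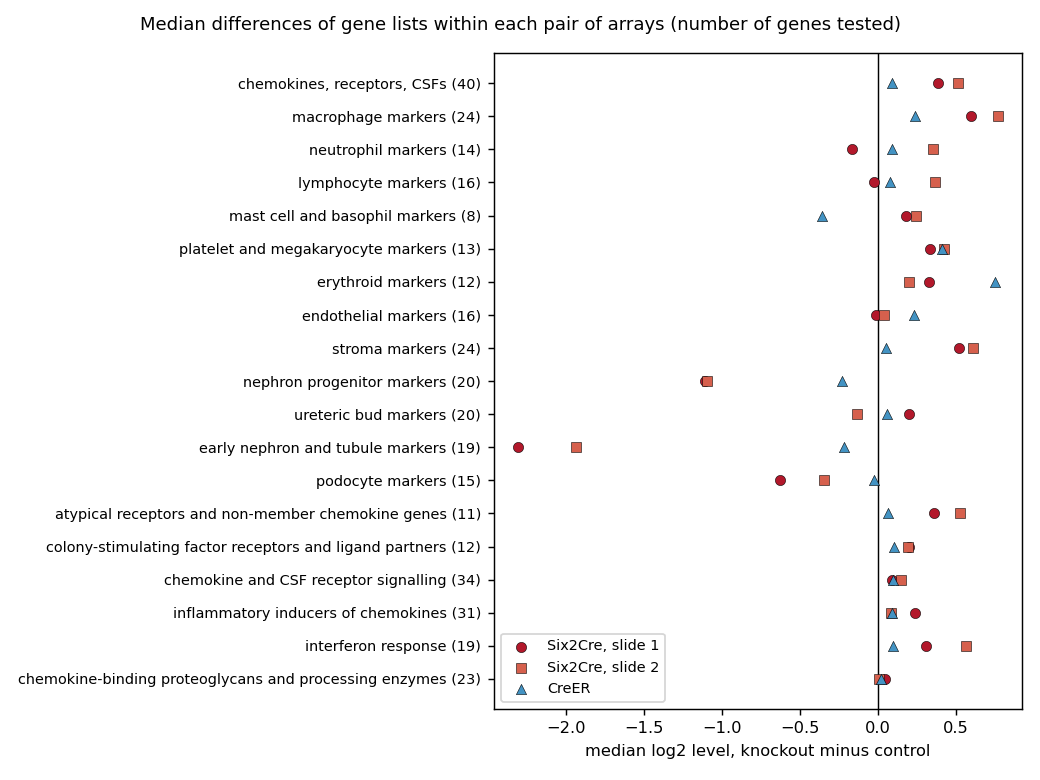
Median difference in log2 level, knockout minus control, of the tested members and of 18 gene lists (rows, number of genes tested in brackets) within each of the 3 pairs of arrays. The members lie at 0.38 and 0.51 in the Six2Cre pairs, the macrophage markers at 0.60 and 0.77 and the early nephron markers at -2.31 and -1.94.

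Marker lists of cell types were read on the same arrays. Macrophage markers were higher on average in the Six2Cre knockouts for 21 of 24 tested, against 14231 of the 26395 features. At an unadjusted p under 0.05, 8 were higher (among them Cd14, Lyve1 and C1qa), against 3.61% of features. Laptm5, Itgam and Cx3cr1 were lower on average, by -0.164, -0.155 and -0.013. The macrophage markers had a median of 0.64 in the Six2Cre line and 0.24 in the CreER pair. Their summed level was 13.9 and 15.1 in the Six2Cre knockouts, against 9.82 and 9.85 in the Six2Cre controls, and 12.2 in the CreER knockout, against 10.4 in the CreER control. None of the 24 was below background on all arrays. In these bulk samples, fewer cells of a type and less RNA per cell cannot be told apart. Stroma markers had a median of 0.55 in the Six2Cre line and 0.05 in the CreER pair, with summed levels of 417 and 402 in the Six2Cre knockouts, against 281 and 274 in the Six2Cre controls. Nephron progenitor and early nephron markers had medians of -1.03 and -2.08 in the Six2Cre line, and the summed nephron progenitor level was 21.8 and 21.7 in the knockouts, against 49.9 and 56.9 in the controls. The part of these markers in the chemokine and CSF values was not tested.

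Markers of neutrophils, the cells that Csf3 drives, had a median of 0.07 over 14 tested genes. At an unadjusted p under 0.05, 1 was higher and 2 were lower (against 3.61% and 2.7% of features). Their summed level was 0.593 and 1.99 in the Six2Cre knockouts, against 0.850 and 1.25 in the Six2Cre controls, so the groups overlapped. The granule genes Elane and Ngp were not well above background on any array. Markers of lymphocytes, which Ccl21 and Ccl25 attract, had a median of 0.07 over 16 tested. At an unadjusted p under 0.05 (3.61% of features), 2 of them were higher. These were Cd247, the T cell receptor zeta chain, with 1.70 ± 0.25 in the Six2Cre line and -0.20 in the CreER pair (limma adjusted p = 0.179), and Rag1, the recombinase of lymphoid progenitors. Rag1 had levels of -4.73 and -5.75 in the Six2Cre knockouts and -5.95 in the CreER knockout, and was not well above background on any of the 3 control arrays. It was at least 6.10-fold higher in the Six2Cre knockouts (limma adjusted p = 0.214) and at least 4.52-fold higher in the CreER knockout. Endothelial markers had a median of 0.02 over 16 tested genes, erythroid markers of 0.21 over 12 and mast cell markers of 0.13 over 8. Hdc, the histamine-forming enzyme of mast cells, lay the other way, at -2.05 ± 0.40 in the Six2Cre line and 0.53 in the CreER pair.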

How the data were processed

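One-colour arrays, 1 for each of 6 samples, were read from the deposited scanner files. Per the file headers, the authors extracted the scans of Cy3-labelled RNA (0.25 ug per sample) with Feature Extraction 10.5.1.1, on an array design annotated on mm9. The values are the scanner software's processed signal, a linear intensity from which background was subtracted, with spatial detrending inside an array and no scaling from array to array, per the file headers. For single-spot probes the series matrix matched it: 100% of values lay within a relative tolerance of 0.001.

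Here the log2 processed signal minus the 75th percentile of each array was analysed. Spots of a probe were averaged, control spots and outlier flags were left out, and 40987 of 41174 probes had a value on all arrays. RefSeq accessions named 24999 probes, without versions. The probe with the highest mean signal stood for a gene, and where probes well above background on all arrays differed in sign the text gives both. Features well above background on at least 2 arrays were tested, 15235 named genes and 11160 transcripts without a name.

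limma 3.58.1 in R 4.3.3 (data.table version 1.17.8) fitted the 4 groups with lmFit and eBayes, two-sided, with Benjamini-Hochberg adjustment over all 26395 features at 0.05. The fit of genotype to 6 arrays was adjusted for line and slide. With 1 array per group, the CreER pair was not tested on its own. A gene that no array of a group showed well above background was given a lower bound, with that group's values raised to the dimmest well-above-background signal of each array. The fits were tested on simulated data. Alternatives were the slide as a block, with and without a trended and robust prior, normexp on median signals with an offset of 50, quantile normalization, the series matrix, other filters, the mean of all probes and leaving out each array. Tables and figures used Python 3.11.15, pandas 2.3.3, numpy 2.4.6 and matplotlib 3.10.9.

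Members with array values in the text were the 10 of lowest unadjusted p, those 2-fold apart on both slides or in the CreER pair, the 10 of highest signal in controls, and Cxcl12, Cxcr4, Csf1, Csf3, Il34, Ccl2 and Cx3cl1. Cxcl17, named by this rule, was not well above background on any array. Other members are given by their differences, except Cxcr2, whose levels were added after its values were seen. For 2 genes, a member and a listed gene, single values are not reported here, and both stay in the counts and medians. Genes outside the members came from the lists at an unadjusted p under 0.05 or as receptors. The members and the lists were chosen with earlier results of these data known. The genotype is stated in the labels, whereas the line was read from the titles together with the design text. The number of arrays limits the precision. Gene order along chromosomes comes from the GRCm38.p6 annotation, and array and annotation builds differ, so no gene coordinates are given. Promoter sequences are from RefSeq.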

Additional observations from a re-analysis of the deposited data

How the results depend on the processing

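No member passed an adjusted p of 0.05 in the Six2Cre comparison with the slide as a block, normexp, quantile normalization, the series table, other filters, the mean of all probes or with any array left out. With the slide as a block and a trended, robust prior, 627 features and 6 members passed, and 2 members were lower at an unadjusted p under 0.05 (Cxcl14 and Cx3cl1). Without a filter 2 were lower as well (Cxcl14 and Cxcl9). Normexp gave a median of 0.154 over members. The cause of these changes was not tested. Reversed, without passing either time, were Ccl19 (0.309), Ccr2 (0.265) and Cxcr2 (0.051) with the mean of all probes, and Ccl28 (-0.043) with normexp. With genotype over 6 arrays, normexp gave 47 features and 1 member (Ccl21a), and quantile normalization 2 lower members. In the CreER pair 3 members passed 1.5-fold, 0 passed 3-fold and 3 passed 2-fold after quantile normalization. Leaving out each array moved the members' Six2Cre median between 0.259 and 0.565, the members higher at an unadjusted p between 3 and 6 and those lower between 0 and 2, and over 6 arrays these counts ran from 6 to 15 and from 1 to 2. Differences that changed sign when an array was left out ran from -1.049 to 0.984 for Ccl19, -0.978 to 0.493 for Ccl24, -0.125 to 0.523 for Ccl27a, -0.387 to 0.71 for Ccl28, -0.164 to 0.709 for Ccl5, -0.5 to 0.265 for Ccl6, -0.646 to 0.409 for Ccr2, -0.336 to 0.917 for Ccr3, -0.068 to 0.558 for Ccr6, -0.513 to 0.886 for Ccr7, -2.198 to 0.717 for Cxcr2, -0.281 to 0.187 for Cxcr3, -0.164 to 0.44 for Cxcr6 and -0.068 to 0.529 for Il34, and over 6 arrays from -0.347 to 0.068 for Ccl19 and -0.06 to 0.393 for Cxcl12. No paired analysis was possible because the groups compared within a line share no replicate numbers, and the slide, which holds a knockout and a control of the Six2Cre line, was fitted as a block instead. On the CreER knockout array the higher background noise limits what can be measured at low signal.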
